A study of Mus musculus with 11 samples.

Results

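The 10 genes described here are Anxa1, Anxa2, Anxa3, Anxa5, S100a4, S100a6, S100a10, S100a11, Lgals1 and Emp3, out of 32285 genes in the deposited count tables. They were singled out on measured values, because their UMIs (unique molecular identifiers, counts of captured mRNA molecules) summed per library and cell type differed between the groups of this study in several cell types. The differences given for them are therefore a description, with the spread between mice. Limits on p are used below only to mark and count differences, and no p-value of a member is printed.

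Single cells from the right brain of 11 mice were sequenced with the 3′ kit of 10x Genomics, with 1 library per mouse. There were 3 sham + WT mice (mice 1, 2 and 3), 3 sham + Lrg1-/- mice (mice 1, 2 and 5), 2 MCAO/R + WT mice (mice 1 and 2) and 3 MCAO/R + Lrg1-/- mice (mice 1, 2 and 5). In MCAO/R, the middle cerebral artery was occluded with a filament and then reperfused, and sham mice had the same operation without the suture entering the internal carotid artery. Lrg1-/- mice are a conventional knockout lacking Lrg1 in every cell, on a C57BL/6N background, and WT mice were C57BL/6 mice from another supplier. The methods give WT mice as male and 8 to 10 weeks old and Lrg1-/- mice as 3 months old. Genotype therefore cannot be told apart from supplier, age and the library features below. The methods list several reperfusion times and do not say which the sequenced mice had, and the discussion speaks of brain tissue at 1 hour.

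Of 155804 barcodes, 132437 passed the limits of 500 genes, 1000 UMIs and 25% mitochondrial UMIs, and 125547 cells remained after 6890 doublets were removed. Total UMIs per library ranged from 37159497 to 171813031, and the median UMIs per cell of a library from 3072 to 11276, with 9334.5 to 11276 in the MCAO/R + WT mice and 3072 to 6172 in the MCAO/R + Lrg1-/- mice. The 3 sham + Lrg1-/- libraries and MCAO/R + Lrg1-/- mouse 1 held round numbers of barcodes (15500, 9000, 5650 and 8500), with at least 551 UMIs per barcode against 500 in the others. The libraries shared between 0.233% and 1.24% of the barcodes of the smaller library of each pair. Lrg1 was at 7.10, 24.0 and 7.47 CPM (counts scaled to a total of 1000000) in endothelial cells of the sham + WT mice and at 428 and 522 CPM in the MCAO/R + WT mice, and 0 UMIs of it were found in all 6 Lrg1-/- libraries. Cells were clustered without the 10 genes, and clusters were named by markers, so that microglia below means microglia-like clusters, and likewise for the other types. In the 18 named types with sums large enough to use, every marker of the type lay at least 2-fold above the median of the types, with 9 of 9 for microglia and 10 of 10 for endothelial cells, and none was at 0. Some named clusters were also led by stress or immune genes, among them Nlrp3, Ccl3 and Tnf in microglia, Lcn2 and Ackr1 in endothelial cells, S100a8 and S100a9 in ependymal cells, and Cxcl2 in border macrophages and monocytes. Unnamed clusters held 26276 cells, 18842 of them from MCAO/R + Lrg1-/- mice, and entered no comparison.

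Annexins are proteins that bind phospholipid membranes when calcium rises, and take part in membrane repair, in vesicle traffic and in the holding back of inflammation. S100 proteins are small calcium sensors, and some of them act as fixed partners of an annexin: S100a10 pairs with annexin A2 and S100a11 with annexin A1. Galectin-1, coded by Lgals1, binds sugar chains on cell surfaces, and Emp3 is a small membrane protein of the family of peripheral myelin protein PMP22. Several of these genes are known to rise in glial and vessel cells after brain injury.

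The 4 S100 genes lie on mouse chromosome 3 as 2 pairs, each close together. In the GENCODE M21 annotation of GRCm38, S100a4 spans chr3:90603771-90606045 and S100a6 chr3:90612882-90624181, 6836 bases apart. S100a11 spans chr3:93520488-93526287 and S100a10 chr3:93555080-93564643, 28792 bases apart, and all 4 are on the plus strand. Anxa2 spans chr9:69453620-69491795 on the plus strand. The other members are Anxa1 at chr19:20373428-20390944 on the minus strand, Anxa3 at chr5:96793339-96845966 on the plus strand, Anxa5 at chr3:36448923-36475894 on the minus strand, Lgals1 at chr15:78926725-78930465 on the plus strand and Emp3 at chr7:45918023-45921404 on the minus strand.

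RefSeq promoter windows, from 250 bases before to 50 bases after the start, were matched for 7 of the 10 members, and not for Anxa3, S100a10 and Lgals1. Both strands were searched for 4 motifs. The AP-1 letters TGANTCA were found in the windows of Anxa2 and S100a11 and in 7.81% of all 32851 windows. The STAT letters TTCNNNGAA were in 8.30% of all windows and in none of the members, the GC box GGGCGG in 35.7% of all windows and in those of Anxa2 and S100a11, and the TATA letters TATAAA in 13.6% of all windows and in those of Anxa1, Anxa2, Emp3 and S100a4. A match is a description of the letters and not of a factor's binding. The parts of the windows upstream of the annotated gene are shown for the 2 members with an AP-1 match and for S100a6 and S100a4, which hold none, with the AP-1 letters in capitals. In order they are chr9:69453433-69453619, chr3:93520246-93520487, chr3:90612644-90612881 and chr3:90603520-90603769 of GRCm38.p6, all on the plus strand.
Anxa2: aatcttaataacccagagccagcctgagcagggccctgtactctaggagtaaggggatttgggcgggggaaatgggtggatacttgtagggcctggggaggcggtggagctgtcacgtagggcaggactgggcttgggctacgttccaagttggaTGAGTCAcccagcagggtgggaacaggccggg
S100a11: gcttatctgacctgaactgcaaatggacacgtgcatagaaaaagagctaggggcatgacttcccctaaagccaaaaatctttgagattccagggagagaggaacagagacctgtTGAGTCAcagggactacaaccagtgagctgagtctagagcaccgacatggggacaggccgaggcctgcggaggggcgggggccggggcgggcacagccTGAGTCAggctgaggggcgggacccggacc
S100a6: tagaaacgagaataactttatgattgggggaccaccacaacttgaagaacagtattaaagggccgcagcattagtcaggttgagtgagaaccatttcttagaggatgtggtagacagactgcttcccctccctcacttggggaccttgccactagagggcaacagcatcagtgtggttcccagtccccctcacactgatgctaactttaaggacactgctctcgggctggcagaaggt
S100a4: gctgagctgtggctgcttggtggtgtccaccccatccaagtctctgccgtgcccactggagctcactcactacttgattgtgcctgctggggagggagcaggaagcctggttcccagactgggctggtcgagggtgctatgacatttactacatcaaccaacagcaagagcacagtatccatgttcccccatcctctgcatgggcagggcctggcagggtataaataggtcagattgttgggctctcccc
The match in Anxa2 begins 95 bases before the RefSeq start, and those in S100a11 begin 136 and 38 bases before it. No AP-1 match shares bases with a GC box in these stretches.

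In the brains of sham + WT mice, the 10 genes were highest in different cells. Levels are CPM on TMM-scaled totals of a cell type, as mean ± SD of the 3 mice, and are compared between cell types and groups but not between genes. Monocytes, B cells and fibroblasts were few: fibroblasts had enough cells in 1 sham + WT mouse only, and are left out of the order below. Neutrophils had too few cells in every sham + WT mouse and have no place in it. Anxa3 was highest in endothelial cells (484 ± 12.4 CPM) and microglia (452 ± 10.8 CPM), which did not overlap, and next in vascular smooth muscle cells (143 ± 11.9 CPM). Anxa5 was highest in ependymal cells (746 ± 26.0 CPM), before pericytes (360.2 ± 18.2 CPM) and endothelial cells (264 ± 8.69 CPM), all without overlap. Anxa2 was highest in ependymal cells (389 ± 20.3 CPM) and monocytes (365 ± 194 CPM), which overlapped, and endothelial cells had 151 ± 12.4 CPM. Anxa1 was highest in monocytes (241 ± 146 CPM) and vascular smooth muscle cells (114 ± 12.6 CPM), which overlapped, and was at 1.02 ± 0.309 CPM in microglia.

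The S100 genes were led by leukocytes and cells of the vessel and ventricle walls. S100a4 was at 680.1 ± 318 CPM in monocytes and 357 ± 15.3 CPM in T cells, which overlapped, and the next type, astrocytes, had 16.5 ± 9.80 CPM. S100a6 was at 914 ± 432 CPM in monocytes, 511 ± 141 CPM in T cells and 497 ± 117 CPM in ependymal cells, with overlap at each step, and at 3.48 ± 0.0223 CPM in microglia. S100a10 was at 445 ± 64.9 CPM in T cells and 365 ± 236 CPM in monocytes, which overlapped, at 324 ± 104 CPM in B cells and at 155 ± 7.34 CPM in ependymal cells. S100a11, the partner of annexin A1, was highest in vascular smooth muscle cells (438 ± 24.6 CPM), above monocytes (292 ± 102 CPM) without overlap. Lgals1 was likewise highest in vascular smooth muscle cells (348 ± 38.1 CPM), then T cells (248 ± 72.1 CPM), and was near the low end in microglia (3.63 ± 0.186 CPM) and oligodendrocytes (2.82 ± 0.145 CPM). Emp3 was highest in monocytes (454 ± 122 CPM), with 216 ± 6.37 CPM in B cells, 160.2 ± 51.3 CPM in T cells and 124 ± 6.32 CPM in border macrophages.

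**Figure D1:**
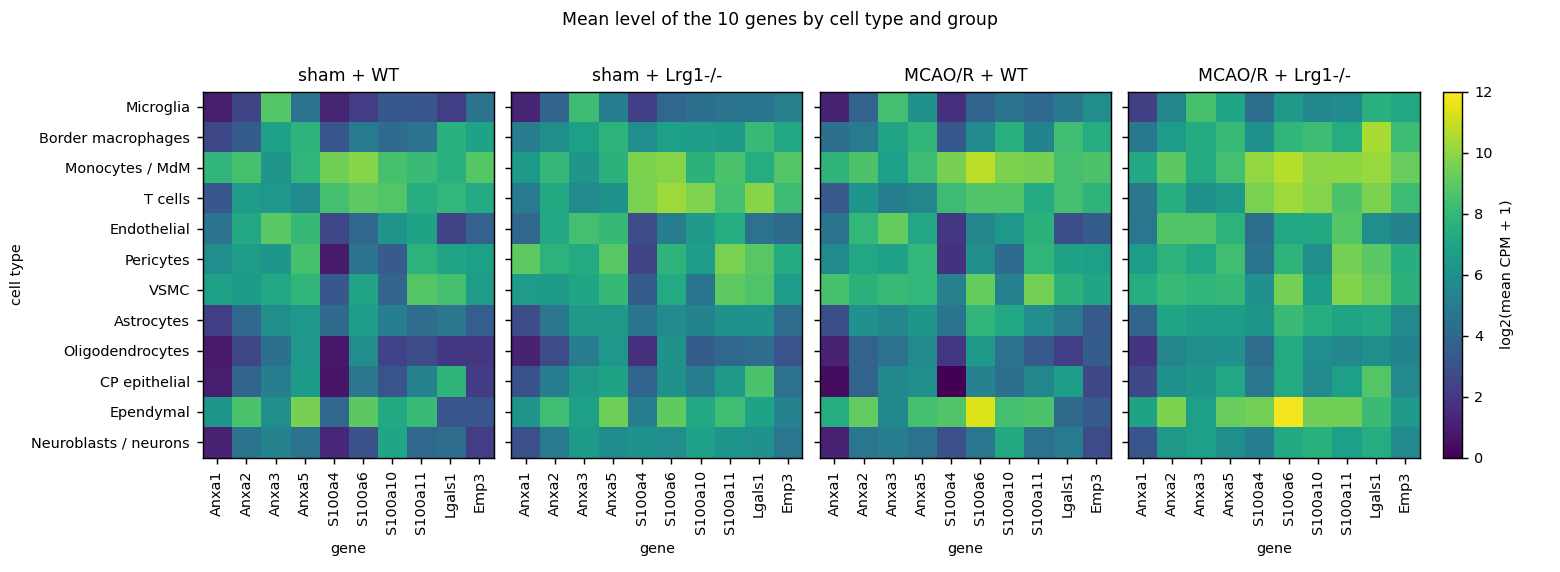
Mean level of each of the 10 genes (columns) in each of the 12 cell types that had sums in all 4 groups (rows), as log2(CPM + 1) of the group mean, with 1 panel per group and a shared colour scale. The microglia row is dark for most members in sham + WT and brighter in MCAO/R + Lrg1-/-, where Lgals1 lay between 139 and 240.3 CPM.

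For each gene and cell type, 5 contrasts were fitted with edgeR: stroke in WT mice, stroke in Lrg1-/- mice, genotype (Lrg1-/- minus WT) after MCAO/R, genotype after sham, and the interaction of both factors. A gene is called where its Benjamini-Hochberg adjusted p over all genes tested in the cell type was under 0.05 and its absolute natural-log fold change over 0.25. Contrasts share groups, so that their counts are not independent of each other. Where a group had 1 library in a cell type, that mouse was assumed to vary like the others.

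After stroke, more pairs of member and cell type were higher than lower in both genotypes. In WT mice, 22 of 129 pairs over 13 cell types were called higher and 3 lower, against 4.45% higher and 4.23% lower of all gene-by-type tests. Of these, 21 and 3 did not overlap between the groups. The number of higher calls was 14 of 129 without sham + WT mouse 1 and 14 of 120 without sham + WT mouse 3. It was 8 of 100 without MCAO/R + WT mouse 1 and 34 of 120 without MCAO/R + WT mouse 2, so that fewer pairs were tested in some of these fits. The 3 lower calls became 2 to 4 when single mice were left out. In Lrg1-/- mice, 48 of 147 pairs over 15 cell types were called higher and 1 lower, against 5.48% and 4.66% of all tests, and 43 of the 48 did not overlap. Without sham + Lrg1-/- mouse 1 this count was 27, and without MCAO/R + Lrg1-/- mouse 2 it was 31. The lower call, of Anxa1 in pericytes, was lost without sham + Lrg1-/- mouse 2 or 5 or MCAO/R + Lrg1-/- mouse 1 or 5. Because the genes were chosen on the same contrasts, nothing is read from the distance between these counts and shares. The share of called genes without overlap was not counted over all genes, so nothing is read from the counts without overlap either.

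Between the genotypes, most calls of these members were higher in Lrg1-/- mice. After MCAO/R, 63 of 138 pairs over 14 cell types were called higher and 2 lower, against 7.82% and 6.76% of all tests, and 58 of the 63 did not overlap. Of the 63, 5 were in oligodendrocyte precursor cells and 1 in T cells, where the MCAO/R + WT group had 1 library with no spread of its own. The 63 became 30 without MCAO/R + WT mouse 2 and 40 without MCAO/R + Lrg1-/- mouse 2, and the 2 lower calls became 0 without MCAO/R + WT mouse 2. Oligodendrocyte precursor cells had 3 libraries, and were not tested in either of these fits. Their 5 calls are therefore missing from the 30 and the 40 whatever the values. After sham, 39 of 129 pairs over 13 cell types were called higher and 2 lower, against 5.27% and 4.89% of all tests, and 38 of the 39 did not overlap. Here too, the share without overlap was not counted over all genes, and nothing is read from the 58 and the 38. The 39 ranged from 27 to 43 when single mice were left out. The 2 lower calls, both of Anxa3, were both lost without sham + WT mouse 3 or sham + Lrg1-/- mouse 1 or 2, and that in microglia was also lost without each of the other 3 sham mice. The median log2 fold change over the members' pairs was 0.50 for stroke in WT mice, 0.94 for stroke in Lrg1-/- mice, 1.32 for genotype after MCAO/R and 0.68 for genotype after sham, beside 0.00, 0.01, 0.03 and 0.00 over all genes.

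For the interaction, 1 of 120 pairs over 12 cell types was called higher and 0 lower, against 0.691% and 0.553% of all tests. At an unadjusted p under 0.05 there were 26 pairs in edgeR (12.4% of all tests) and 25 in DESeq2 (11.0%), and DESeq2 called 5 higher (1.55%). The single call was Lgals1 in vascular smooth muscle cells. The count was 0 without sham + WT mouse 1, sham + Lrg1-/- mouse 2 or MCAO/R + WT mouse 2, 12 without MCAO/R + WT mouse 1, 5 without MCAO/R + Lrg1-/- mouse 1 and 2 without MCAO/R + Lrg1-/- mouse 5. Without MCAO/R + Lrg1-/- mouse 2, 1 pair was called lower.

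The calls were spread unevenly over glia, vessel cells, epithelia and leukocytes. In microglia, the brain's resident macrophages, 6 of 10 members were called higher after stroke in WT mice (9.72% of all genes tested there), 9 after stroke in Lrg1-/- mice (19.9%) and 9 in Lrg1-/- mice between the MCAO/R groups (13.7%). In endothelial cells, the lining of the vessels, the counts were 2 (8.25%), 8 (11.3%) and 8 (12.6%). In vascular smooth muscle cells, which wrap arteries, 7 were called higher after stroke in WT mice (7.06%) and 9 in Lrg1-/- mice (7.25%). In oligodendrocytes, the myelin-forming cells, the counts were 2 (11.6%), 8 (6.97%) and, for genotype after MCAO/R, 6 (13.7%). Choroid plexus epithelial cells, which make cerebrospinal fluid, had 9 of 10 called higher in Lrg1-/- mice after sham (11.4% of all genes tested there). In the same contrast, 7 were called higher in T cells (2.22%), 7 in pericytes (7.2%) and 4 in border macrophages (1.78%). Microglia had 6 called higher and 1 lower there, beside 5.27% and 4.89% over all cell types. The share in microglia alone is not given for this contrast. In the other contrasts given above, the share called higher in microglia was above that over all cell types. In astrocytes, edgeR called 0 of 10 after stroke in WT (1.63%) and 0 in Lrg1-/- mice (0.183%), with 4 (15.9%) and 5 (16.6%) at an unadjusted p under 0.05, and DESeq2 called 0 (3.04%) and 2 (1.74%) higher.

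Many calls were made where a gene is weakly expressed. In 11 of 22 calls for stroke in WT mice, 22 of 48 for stroke in Lrg1-/- mice, 33 of 63 for genotype after MCAO/R and 18 of 39 for genotype after sham, the member lay under 10% of its level in the cell type where it was highest, in the group where it was higher. That highest level was sought over all named cell types with sums, neutrophils among them. By gene, Lgals1 and Emp3 were called higher in 11 of 14 cell types each for genotype after MCAO/R, against 7.82% of all tests. The 11 include oligodendrocyte precursor cells, where the MCAO/R + WT group was 1 library with 0 UMIs of either gene. Of 14 cell types, S100a11 was called higher in 8, Anxa2 in 7, S100a6 and S100a10 in 6, Anxa5 in 4 and Anxa3 in 1. Of 13, S100a4 was called higher in 7 and Anxa1 in 2. For genotype after sham, Lgals1 was called higher in 8 of 13 cell types and S100a11 in 6 of 13, against 5.27% of all tests. For stroke in WT mice, Anxa2, S100a6 and S100a10 were called higher in 4 of 13 cell types each, against 4.45% of all tests. For stroke in Lrg1-/- mice, S100a6, S100a10 and Lgals1 were called higher in 7 of 15 each, against 5.48%.

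**Figure D2:**
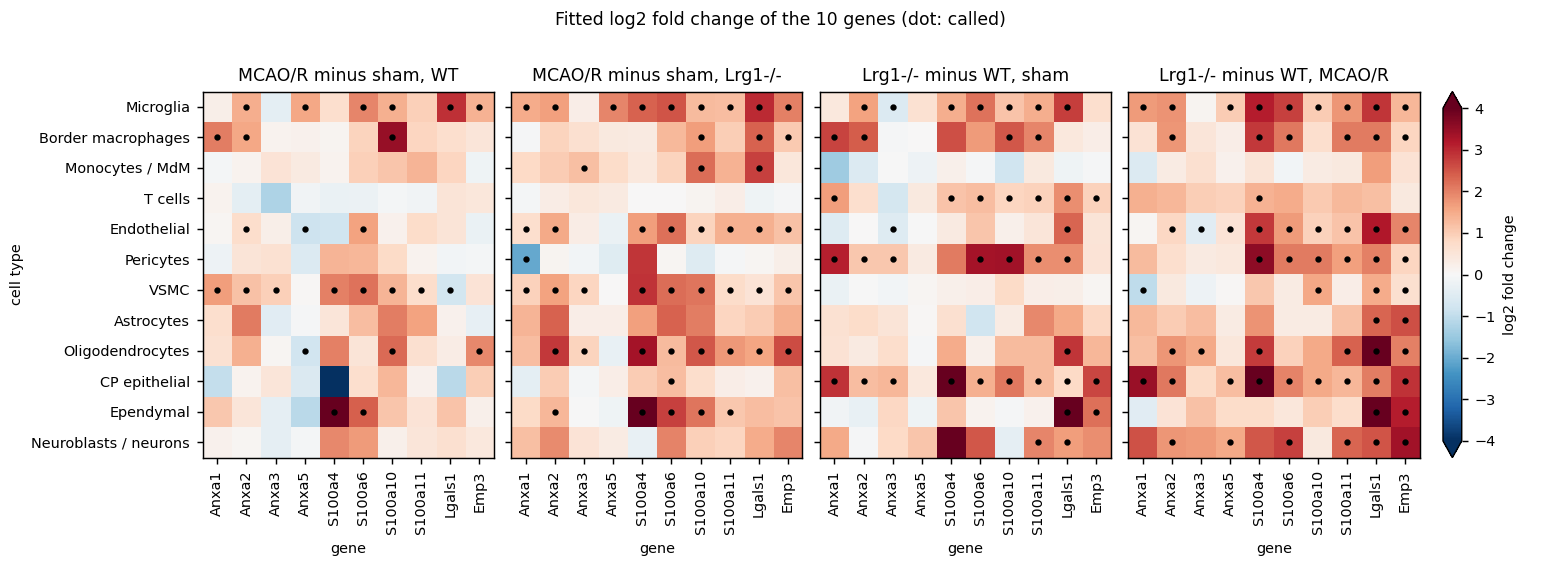
Fitted log2 fold change of each of the 10 genes (columns) in the 12 cell types with sums in all 4 groups (rows), 1 panel per contrast, with red for higher, blue for lower and a dot where the pair was called. Lgals1 and Emp3 carry the most dots in the panel for genotype after MCAO/R, and the blue dots are few in every panel.

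Transcripts of other cells moved with genotype in the same sums. The summed level of 9 erythroid markers in microglia was 55.6 to 63.5 CPM in sham + WT mice and 53.6 to 58.8 CPM in MCAO/R + WT mice, but 15387 to 30348 CPM in sham + Lrg1-/- mice and 8464 to 25053 CPM in MCAO/R + Lrg1-/- mice. In endothelial cells, it was 1040.5 to 1480.3 and 702 to 1669 CPM in the WT groups, sham and MCAO/R, and 24409 to 35313 and 15686 to 29976 CPM in the Lrg1-/- groups. The WT and Lrg1-/- mice did not overlap. The sum of 9 choroid plexus markers in microglia was 403 to 549 and 123 to 305 CPM in the WT groups and 5680.0 to 10114 and 2951 to 8004 CPM in the Lrg1-/- groups, again without overlap. In pericytes, the choroid plexus sum was 395 to 2759.6 and 109 to 269 CPM in the sham and MCAO/R WT mice and 10815 to 46169 CPM in sham + Lrg1-/- mice. Lgals1 is itself expressed in choroid plexus epithelial cells, at 274, 169 and 222 CPM in sham + WT, 443, 321 and 385 CPM in sham + Lrg1-/-, 114 and 96.3 CPM in MCAO/R + WT and 555, 353 and 401 CPM in MCAO/R + Lrg1-/- mice, and all Lrg1-/- mice lay above all WT mice. Of the 9322 choroid plexus epithelial cells, 4407 came from sham + Lrg1-/- and 4233 from MCAO/R + Lrg1-/- mice, and of the 3807 erythroid cells 375 and 3429. No gene of these lists was at 0 in the cell types named. The methods name a red blood cell lysis buffer in the preparation of the cells. The part of these transcripts in the genotype results was not tested.

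Sums of monocyte markers also differed between the groups. Their 9-gene sum in microglia was 21.8 to 23.4 CPM in sham + WT, 32.4 to 34.2 CPM in sham + Lrg1-/-, 32.0 to 92.5 CPM in MCAO/R + WT and 76.3 to 182 CPM in MCAO/R + Lrg1-/- mice. In oligodendrocytes, the same sum was 11.3 to 14.6, 18.2 to 22.9, 18.5 to 24.6 and 46.1 to 111 CPM in that order. In endothelial cells, it was 641 to 759, 629 to 769, 858 to 994 and 769 to 960.0 CPM, with overlap between the genotypes of each operation. That sum was far above the one in microglia already in sham + WT mice. Whether it came from monocytes or from the endothelial cells themselves was not tested, so its overlap cannot show the part of monocyte transcripts there. The part of monocyte transcripts in the members' values was not tested. With haemoglobin, mitochondrial and Ttr UMIs left out of the sums, 22 pairs were called higher for stroke in WT mice, 47 for stroke in Lrg1-/- mice, 62 for genotype after MCAO/R and 39 for genotype after sham, beside 22, 48, 63 and 39 with them. This takes out the UMIs of those genes alone. Any UMIs of the members that came from other cells stay in the sums, so these counts cannot show the part of such transcripts.

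**Figure D3:**
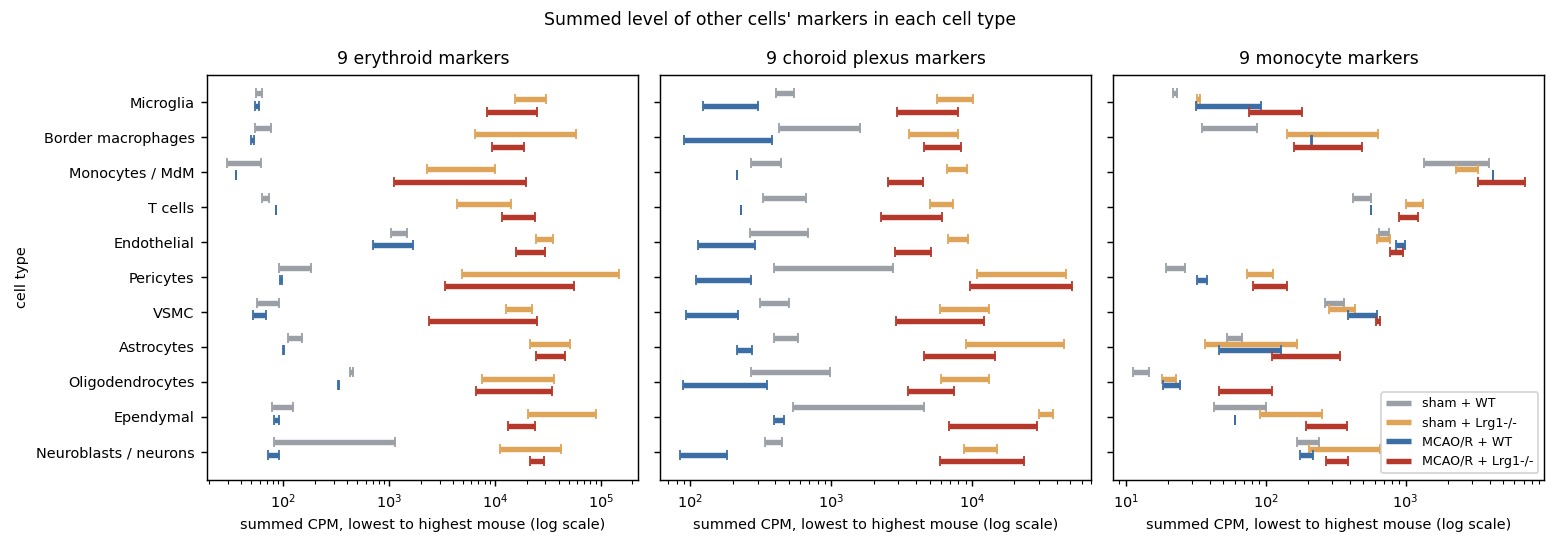
Range over mice of the summed CPM (log scale) of 9 erythroid, 9 choroid plexus and 9 monocyte markers in each of the other cell types with sums in all 4 groups, with 1 bar per group from its lowest to its highest mouse. In microglia the erythroid sums of the Lrg1-/- mice start at 8464 CPM, and those of the WT mice end at 63.5 CPM.

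Different clusters held most cells of a type in different groups, and values within a type include this shift. Of microglia, 76.2% of sham + WT cells lay in a cluster led by Ptpro, Ifih1 and Ptprc, 68.8% of MCAO/R + WT cells in one led by Cd86, Ptpro and Nlrp3, and 53.0% of sham + Lrg1-/- and 34.5% of MCAO/R + Lrg1-/- cells in one led by Tbxas1 and Csmd3. A further microglia cluster, led by Ccl12 and Ly86, held 36.8% and 25.5% of the sham and MCAO/R Lrg1-/- cells. It held 0.715% and 1.53% of the WT cells. Its cells had a median of 1517 UMIs and 5.21% mitochondrial UMIs, against 9773 and 1.41% in the cluster led by Ptpro, Ifih1 and Ptprc. Of endothelial cells, 60.4% and 45.5% of the MCAO/R + WT and MCAO/R + Lrg1-/- cells lay in a cluster led by Adgrl4, Flt1 and Mecom, 35.8% of sham + WT cells in one led by Hmcn1 and Flt1, and 26.1% of sham + Lrg1-/- cells in one led by Cxcl12 and Cldn5. Of oligodendrocytes, 49.6% and 58.7% of the sham and MCAO/R Lrg1-/- cells lay in a cluster led by Slc24a2 and St18, and 68.8% of MCAO/R + WT cells in one led by Phactr3 and Ptgds. The cluster led by Slc24a2 and St18 held 3.30% and 1.89% of the sham and MCAO/R WT cells. Its cells had a median of 2655 UMIs and 12.2% mitochondrial UMIs, against 11152 and 4.04% in the cluster led by Phactr3 and Ptgds. Of ependymal cells, 41.3% and 46.6% of the Lrg1-/- cells lay in a cluster with S100a8 and S100a9 among its leading genes, against 10.5% and 2.82% of the sham and MCAO/R WT cells. Of pericytes, 53.8% of sham + Lrg1-/- cells lay in a cluster led by Rgs5, Vtn and Ebf1, and at least 74.3% of the cells of the other groups in one led by Vtn and Atp13a5. Of astrocytes, 40.9% and 44.3% of the Lrg1-/- cells lay in a cluster led by Gpc5 and Ntm, and 40.9% of MCAO/R + WT cells in one led by Gpc5 and Slc1a2. Of monocytes, 61.0% of sham + Lrg1-/- cells lay in a cluster led by Cybb and Cytip, and 51.0%, 94.6% and 90.2% of sham + WT, MCAO/R + WT and MCAO/R + Lrg1-/- cells in one led by Chil3 and Lyz2. Vascular smooth muscle cells, border macrophages, T cells and choroid plexus epithelial cells each had the same leading cluster in all groups, but the smaller clusters differed in share. In T cells, a cluster with Satb1 and Ccr7 among its leading genes held 36.8% and 33.3% of the sham and MCAO/R WT cells and 4.72% and 7.80% of the Lrg1-/- cells. In choroid plexus epithelial cells, a cluster led by Ttr, Ecrg4 and Folr1 that was not the leading one held 5.50% and 5.84% of the WT and 33.9% and 23.0% of the Lrg1-/- cells, and one led by Htr2c and Trpm3 26.2% and 25.5% against 3.36% and 4.28%. In vascular smooth muscle cells, a cluster led by Crispld2 and Kcnab1 held 2.81% and 0.522% of the WT and 21.3% and 20.5% of the Lrg1-/- cells, and in border macrophages one led by Pf4 and Mrc1 held 18.6% and 9.32% against 39.3% and 31.0%. The former had a median of 3820 UMIs and 11.7% mitochondrial UMIs per cell, against 10700 and 5.49% in the leading cluster of its type. The latter had 1856 UMIs and 5.44%, against 10838.5 and 2.62%. The part of these shifts in the members' values was not tested.

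Anxa2 codes for the annexin that, with S100a10, binds plasminogen on cell surfaces. In endothelial cells it was at 138, 151 and 163 CPM in the 3 sham + WT mice, 142, 138 and 176 CPM in the sham + Lrg1-/- mice, 309 and 180.4 CPM in the MCAO/R + WT mice and 376, 542 and 371 CPM in the MCAO/R + Lrg1-/- mice. All MCAO/R mice lay above all sham mice, and the MCAO/R + Lrg1-/- mice above both MCAO/R + WT mice. The log2 fold change for stroke was 0.70 ± 0.22 (SE) in WT and 1.51 ± 0.20 in Lrg1-/- mice, and for genotype 0.81 ± 0.22 after MCAO/R and 0.00 ± 0.20 after sham. The call for stroke in Lrg1-/- mice was held with each mouse left out. That for stroke in WT mice was lost with any of 6 mice left out, at 0.26 without MCAO/R + WT mouse 1 and between 0.64 and 0.76 without a sham + WT mouse or sham + Lrg1-/- mouse 1 or 2. The genotype call after MCAO/R was lost at 0.45 without MCAO/R + WT mouse 2 and at 0.62 without MCAO/R + Lrg1-/- mouse 2.

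Anxa2 in vascular smooth muscle cells was at 107, 82.9 and 86.2 CPM in sham + WT, 89.6, 79.1 and 105 CPM in sham + Lrg1-/-, 223 and 195 CPM in MCAO/R + WT and 198, 313 and 294 CPM in MCAO/R + Lrg1-/- mice. It rose after stroke in both genotypes, by 1.19 ± 0.17 and 1.61 ± 0.17 on the log2 scale, and both calls held with every mouse left out. In pericytes, the other contractile cells of the vessel wall, it was at 86.7, 92.0 and 124 CPM in sham + WT, 217, 187 and 235 CPM in sham + Lrg1-/-, 212 and 79.8 CPM in MCAO/R + WT and 195, 288 and 162 CPM in MCAO/R + Lrg1-/- mice. The sham groups did not overlap, with a log2 fold change for genotype of 1.07 ± 0.32, while the MCAO/R groups did overlap. That call was lost without any of sham + WT mice 1 and 2 and the 3 sham + Lrg1-/- mice, with values from 0.98 to 1.12, with 0.30 and no call where each cell was thinned at random to 1000 UMIs, and it rests on 93 pericytes from sham + Lrg1-/- mice. In astrocytes, Anxa2 was at 16.2, 16.2 and 13.7 CPM in sham + WT, 16.6, 6.17 and 55.0 CPM in sham + Lrg1-/-, 115 and 18.3 CPM in MCAO/R + WT and 160.3, 145 and 86.1 CPM in MCAO/R + Lrg1-/- mice. The stroke differences of 2.08 ± 0.61 and 2.36 ± 0.70 did not pass the limits. The genotype difference of Anxa2 after MCAO/R was not called in vascular smooth muscle cells, pericytes or astrocytes.

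**Figure D4:**
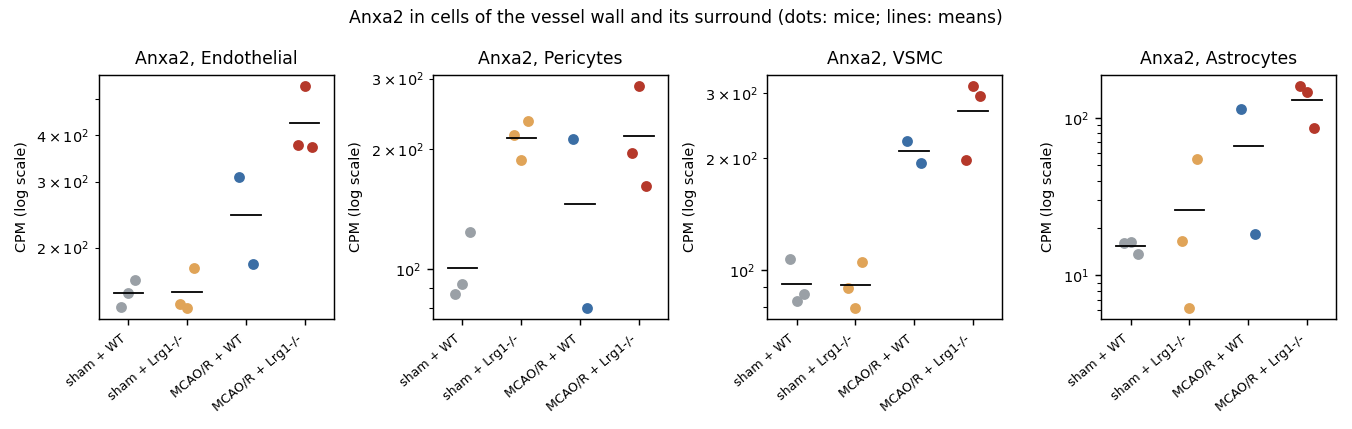
Anxa2 in endothelial cells, pericytes, vascular smooth muscle cells and astrocytes, as CPM on a log axis, with 1 dot per mouse and a line at each group's mean. In vascular smooth muscle cells the 5 MCAO/R mice sit between 195 and 313 CPM and the 6 sham mice between 79.1 and 107 CPM.

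Anxa2 was high in ependymal cells, which line the ventricles, and in monocytes. In ependymal cells it was at 366, 403 and 398 CPM in sham + WT, 259, 282 and 413 CPM in sham + Lrg1-/-, 633 and 464 CPM in MCAO/R + WT and 481, 1259.8 and 636 CPM in MCAO/R + Lrg1-/- mice. All MCAO/R mice lay above all sham mice, by 1.32 ± 0.31 in Lrg1-/- mice. MCAO/R + Lrg1-/- mouse 2 stood far above the others, and without it the difference was 0.79 and the call was lost, as it was without 8 other mice at 1.19 to 1.46. In monocytes and monocyte-derived macrophages, 9 libraries had enough cells. There, Anxa2 was at 547, 387 and 162 CPM in sham + WT, 179.9 and 328 CPM in 2 sham + Lrg1-/-, 405 CPM in 1 MCAO/R + WT and 303, 672 and 541 CPM in 3 MCAO/R + Lrg1-/- mice, and the groups of more than 1 mouse overlapped.

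S100a10 codes for the partner that holds annexin A2 at the membrane. In border macrophages, the resident macrophages of the meninges and vessel surround, it was at 14.3, 20.5 and 17.4 CPM in sham + WT, 102, 65.2 and 141 CPM in sham + Lrg1-/-, 275 and 111 CPM in MCAO/R + WT and 109, 415 and 397 CPM in MCAO/R + Lrg1-/- mice. The sham + WT mice lay below all 8 other mice. It rose after stroke in WT mice by 3.48 ± 0.48 on the log2 scale, a call that held with every mouse left out, at 2.67 without MCAO/R + WT mouse 1. The stroke difference in Lrg1-/- mice was 1.66 ± 0.43, with overlap, and the genotype difference after sham 2.49 ± 0.49. These latter calls were lost without some mice, the first at 1.69, 1.40, 1.35 and 1.47 without sham + Lrg1-/- mice 1 and 2 and MCAO/R + Lrg1-/- mice 2 and 5, and the second at 2.39 and 2.51 without sham + WT mice 1 and 3 and at 1.20 in thinned cells.

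In pericytes, S100a10 was at 8.85, 14.4 and 6.20 CPM in sham + WT, 162, 52.0 and 97.4 CPM in sham + Lrg1-/-, 18.6 and 15.7 CPM in MCAO/R + WT and 34.8, 99.8 and 44.2 CPM in MCAO/R + Lrg1-/- mice. These values rest on few UMIs: 10, 19 and 7, then 30, 10 and 12, then 41 and 44, then 5, 61 and 6. The Lrg1-/- mice lay above the WT mice in both operations, by 3.36 ± 0.45 after sham, held with every mouse left out (2.76 without sham + Lrg1-/- mouse 1) but not in cells thinned to 1000 UMIs (2.71), and by 2.09 ± 0.40 after MCAO/R. The latter was 1.20 and not called without MCAO/R + Lrg1-/- mouse 2. In vascular smooth muscle cells it was at 12.8, 15.01 and 15.1 CPM in sham + WT, 25.5, 24.0 and 24.5 CPM in sham + Lrg1-/-, 46.7 and 28.5 CPM in MCAO/R + WT and 55.6, 142 and 105 CPM in MCAO/R + Lrg1-/- mice. These 4 groups did not overlap, and the log2 fold change for stroke was 1.37 ± 0.30 in WT and 2.13 ± 0.25 in Lrg1-/- mice. The call in WT mice was lost at 0.98 without MCAO/R + WT mouse 1 and at 1.96 in cells thinned to 1000 UMIs. In ependymal cells, the values were 159.9, 147 and 159 CPM in sham + WT, 94.6, 109 and 249.8 CPM in sham + Lrg1-/-, 447 and 229.8 CPM in MCAO/R + WT and 357, 1118 and 514 CPM in MCAO/R + Lrg1-/- mice. The difference for stroke in Lrg1-/- mice, 2.14 ± 0.44, was called with all mice and lost at 1.89 and 1.96 without sham + Lrg1-/- mice 1 and 2 and at 1.51 without MCAO/R + Lrg1-/- mouse 2.

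S100a10 was also a gene of leukocytes. In T cells it was at 401, 519.8 and 416 CPM in sham + WT and 892, 762 and 795 CPM in sham + Lrg1-/- mice, without overlap (0.87 ± 0.17 on the log2 scale, 0.80 and not called without sham + WT mouse 1). After MCAO/R, T cells had 427 CPM in the WT mouse with enough cells and 862, 1015 and 745 CPM in the Lrg1-/- mice. In monocytes, it was at 586, 393 and 116 CPM in sham + WT, 209.6 and 211 CPM in sham + Lrg1-/-, 783 CPM in MCAO/R + WT and 399, 1409.9 and 1128 CPM in MCAO/R + Lrg1-/- mice. The Lrg1-/- mice did not overlap between sham and MCAO/R (2.23 ± 0.60), a call lost without sham + WT mouse 2, sham + Lrg1-/- mouse 1 or 5, or MCAO/R + Lrg1-/- mouse 2 or 5, at 1.85 to 2.23.

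Anxa1 codes for the annexin that limits the adhesion of leukocytes to vessels. In vascular smooth muscle cells it was at 109, 105 and 129 CPM in sham + WT, 83.7, 99.6 and 106 CPM in sham + Lrg1-/-, 364 and 371 CPM in MCAO/R + WT and 105, 269 and 142 CPM in MCAO/R + Lrg1-/- mice. Both MCAO/R + WT mice lay above all 9 others. It rose after stroke in WT mice, 3.20-fold or 1.68 ± 0.24 on the log2 scale, and the call held with every mouse left out. In Lrg1-/- mice the stroke difference was 0.93 ± 0.24, with overlap, and was not called at 0.82 without sham + Lrg1-/- mouse 1 and 0.44 without MCAO/R + Lrg1-/- mouse 2. After MCAO/R it was lower in Lrg1-/- than in WT mice (-1.02 ± 0.24), a call lost at -1.005 without MCAO/R + WT mouse 2.

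In pericytes, Anxa1 was at 27.4, 97.3 and 48.7 CPM in sham + WT, 303, 406 and 852 CPM in sham + Lrg1-/-, 68.6 and 34.6 CPM in MCAO/R + WT and 55.8, 191 and 36.8 CPM in MCAO/R + Lrg1-/- mice. The MCAO/R + Lrg1-/- values rest on 8, 117 and 5 UMIs. The 3 sham + Lrg1-/- mice stood above all the others. Their difference from sham + WT was 3.10 ± 0.44 and was called with every mouse left out, at 3.74 without sham + WT mouse 2. Their difference from MCAO/R + Lrg1-/- mice was -2.03 ± 0.47, the only lower call among stroke differences in Lrg1-/- mice, and it was lost at -2.14, -1.499, -1.76 and -1.72 without sham + Lrg1-/- mice 2 and 5 and MCAO/R + Lrg1-/- mice 1 and 5, and was -3.42 without MCAO/R + Lrg1-/- mouse 2. In cells thinned to 1000 UMIs it was -1.26 and not called. In pericytes the choroid plexus sum of the sham + Lrg1-/- mice was 10815 to 46169 CPM and the erythroid sum 4932 to 148364 CPM, and their part in this difference was not tested. In monocytes, Anxa1 was at 334, 315 and 73.3 CPM in sham + WT, 64.9 and 121 CPM in sham + Lrg1-/-, 225 CPM in MCAO/R + WT and 151, 186 and 121 CPM in MCAO/R + Lrg1-/- mice, with overlap between the groups of more than 1 mouse.

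S100a11, the partner of annexin A1, was higher in pericytes of Lrg1-/- mice after both operations. It was at 192, 229.6 and 216 CPM in sham + WT, 677, 723 and 933 CPM in sham + Lrg1-/-, 334 and 138 CPM in MCAO/R + WT and 641, 988 and 537 CPM in MCAO/R + Lrg1-/- mice. The genotypes did not overlap. The log2 fold change was 1.86 ± 0.28 after sham and 1.66 ± 0.30 after MCAO/R, and both calls held with every mouse left out, the second at 2.42 without MCAO/R + WT mouse 1. Vascular smooth muscle cells had 465, 431 and 417 CPM in sham + WT, 457.6, 498 and 617 CPM in sham + Lrg1-/-, 861 and 573 CPM in MCAO/R + WT and 741, 1048 and 790.4 CPM in MCAO/R + Lrg1-/- mice. Within each genotype the MCAO/R mice lay above the sham mice, by 0.71 ± 0.18 in WT and 0.73 ± 0.16 in Lrg1-/- mice. The first was lost at 0.68 without sham + WT mouse 3 and 0.39 without MCAO/R + WT mouse 1, and the second held with every mouse left out. In monocytes, S100a11 was at 324, 374 and 177 CPM in sham + WT, 284 and 483 CPM in sham + Lrg1-/-, 747 CPM in MCAO/R + WT and 573, 1516 and 856 CPM in MCAO/R + Lrg1-/- mice, and all MCAO/R mice lay above all sham mice.

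Anxa3, an annexin of endothelial cells and microglia in these data, was the only member called lower in Lrg1-/- mice after sham. In endothelial cells it was at 469.6, 491 and 491 CPM in sham + WT, 315, 339.6 and 364 CPM in sham + Lrg1-/-, 499 and 643 CPM in MCAO/R + WT and 396, 480.3 and 386 CPM in MCAO/R + Lrg1-/- mice. The Lrg1-/- mice lay below the WT mice of the same operation, with log2 fold changes of -0.51 ± 0.12 after sham and -0.44 ± 0.13 after MCAO/R. The sham call was lost at -0.50, -0.46 and -0.51 without sham + WT mouse 3 and sham + Lrg1-/- mice 1 and 2, and the MCAO/R call at -0.27 without MCAO/R + WT mouse 2. In microglia it was at 455, 440.0 and 461 CPM in sham + WT, 297, 303 and 319.6 CPM in sham + Lrg1-/-, 413 and 272 CPM in MCAO/R + WT and 362, 392 and 351 CPM in MCAO/R + Lrg1-/- mice. The sham groups did not overlap (-0.56 ± 0.16), but this call was lost without any 1 of the 6 sham mice, at -0.60 to -0.54, and was -0.30 without a call in thinned cells. It rose after stroke in vascular smooth muscle cells, from 131, 155 and 143 to 297 and 256 CPM in WT (0.94 ± 0.15) and from 129.8, 124 and 150.5 to 186, 271 and 249 CPM in Lrg1-/- mice (0.85 ± 0.14). Both calls held with every mouse left out.

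Anxa5 codes for the annexin used in the laboratory to detect phosphatidylserine on dying cells. It fell after stroke in WT mice in endothelial cells and oligodendrocytes, and with Lgals1 in vascular smooth muscle cells these were the 3 lower calls of that contrast. In endothelial cells it was at 271, 254 and 267 CPM in sham + WT, 255, 266 and 255 CPM in sham + Lrg1-/-, 146 and 149 CPM in MCAO/R + WT and 244, 232 and 173 CPM in MCAO/R + Lrg1-/- mice. The log2 fold change for stroke in WT mice was -0.84 ± 0.13, called with every mouse left out, and that for genotype after MCAO/R was 0.55 ± 0.13, lost at 0.53 and 0.54 without MCAO/R + WT mouse 1 or 2. In oligodendrocytes it was at 82.4, 74.5 and 97.0 CPM in sham + WT, 81.3, 76.9 and 91.0039 CPM in sham + Lrg1-/-, 53.9 and 45.7 CPM in MCAO/R + WT and 55.5, 83.6 and 61.2 CPM in MCAO/R + Lrg1-/- mice, with -0.77 ± 0.17 for stroke in WT mice, also held with every mouse left out but not in cells thinned to 1000 UMIs (-0.57). Microglia went the other way, from 23.3, 22.7 and 21.5 CPM in sham + WT to 91.6 and 39.0 CPM in MCAO/R + WT mice and from 33.7, 39.9 and 27.8 CPM in sham + Lrg1-/- to 123, 188 and 82.8 CPM in MCAO/R + Lrg1-/- mice, without overlap within either genotype.

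By the mean of the 4 groups, Anxa5 was highest in ependymal cells, pericytes and monocytes. Ependymal cells had 724, 739 and 774 CPM in sham + WT, 524, 702 and 739.7 CPM in sham + Lrg1-/-, 358 and 344 CPM in MCAO/R + WT and 655, 638 and 457.9 CPM in MCAO/R + Lrg1-/- mice. The MCAO/R + WT mice lay below all the others, with a log2 fold change of -1.09 ± 0.22 against sham + WT that was not called. Pericytes had 379.6, 357 and 343 CPM in sham + WT, 460.1, 359 and 584 CPM in sham + Lrg1-/-, 296 and 198 CPM in MCAO/R + WT and 307, 393 and 250.2 CPM in MCAO/R + Lrg1-/- mice. Monocytes had 272, 241 and 201 CPM in sham + WT, 197 and 216 CPM in sham + Lrg1-/-, 308 CPM in MCAO/R + WT and 306, 373 and 347 CPM in MCAO/R + Lrg1-/- mice, with all MCAO/R mice above all sham mice.

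S100a4 and S100a6, which lie close together on chromosome 3, code for S100 proteins linked to cell motility and to the cytoskeleton. Both were high in ependymal cells after stroke. S100a4 there was at 18.1, 8.66 and 19.7 CPM in sham + WT, 25.4, 29.2 and 49.1 CPM in sham + Lrg1-/-, 559 and 298 CPM in MCAO/R + WT and 417, 1056 and 669 CPM in MCAO/R + Lrg1-/- mice. The lowest MCAO/R mouse lay well above the highest sham mouse. S100a4 rose 27.0-fold in WT (4.75 ± 0.44 on the log2 scale) and 20.8-fold in Lrg1-/- mice (4.38 ± 0.43), and both calls held with every mouse left out. S100a6 there was at 424, 435 and 632 CPM in sham + WT, 335, 582 and 716 CPM in sham + Lrg1-/-, 3259.6 and 1969.8 CPM in MCAO/R + WT and 2539, 5019 and 3193 CPM in MCAO/R + Lrg1-/- mice. Its stroke difference in Lrg1-/- mice, 2.72 ± 0.34, held with every mouse left out. That in WT mice, 2.40 ± 0.36, was lost at 2.29, 2.31 and 2.602 without 1 of the sham + WT mice and at 1.97 without MCAO/R + WT mouse 1. In ependymal cells the 9-gene monocyte sum was 43.0 to 101 CPM in sham + WT, 90.8 to 253 CPM in sham + Lrg1-/-, 60.2 to 60.4 CPM in MCAO/R + WT and 195 to 379 CPM in MCAO/R + Lrg1-/- mice. Its part in these differences was not tested.

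Outside the ventricle wall, S100a6 was higher after stroke in microglia and vascular smooth muscle cells. In microglia it was at 3.503, 3.46 and 3.47 CPM in sham + WT, 19.3, 13.2 and 14.1 CPM in sham + Lrg1-/-, 18.6 and 8.002 CPM in MCAO/R + WT and 69.9, 99.7 and 97.7 CPM in MCAO/R + Lrg1-/- mice. The sham + WT mice lay close together and below all others, and the MCAO/R + Lrg1-/- mice above all others. Its log2 fold change for stroke was 1.94 ± 0.29 in WT and 2.51 ± 0.28 in Lrg1-/- mice, and that in WT was 1.21 without MCAO/R + WT mouse 1. In vascular smooth muscle cells it was at 105, 108 and 166 CPM in sham + WT, 111, 91.4 and 281 CPM in sham + Lrg1-/-, 656 and 491 CPM in MCAO/R + WT and 577, 715 and 844 CPM in MCAO/R + Lrg1-/- mice, with differences for stroke of 2.18 ± 0.32 in WT and 2.24 ± 0.31 in Lrg1-/- mice and no overlap.

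In T cells both S100 genes were higher in sham + Lrg1-/- than in sham + WT mice. S100a4 was at 348, 348 and 375 CPM in sham + WT and 832, 738 and 760.4 CPM in sham + Lrg1-/- mice (1.13 ± 0.16 on the log2 scale), and S100a6 at 433, 426 and 674 and 1311, 898 and 1386 CPM (1.25 ± 0.21). Both calls held with every mouse left out. After MCAO/R, the WT group had 1 library with enough T cells (21 cells), so that its spread was taken from the other groups. S100a4 was at 298 CPM in that library and at 679, 871 and 781 CPM in the Lrg1-/- mice (1.39 ± 0.25, 1.30 and not called without MCAO/R + Lrg1-/- mouse 2). S100a6 was at 432 and 1091, 1299.8 and 1249 CPM. In monocytes, where both are high, S100a4 was at 963, 741 and 336 CPM in sham + WT, 543 and 1048 CPM in sham + Lrg1-/-, 741 CPM in MCAO/R + WT and 784, 1539 and 831 CPM in MCAO/R + Lrg1-/- mice. S100a6 was at 1353, 901 and 488 CPM in sham + WT, 664 and 1129.8 CPM in sham + Lrg1-/-, 1777 CPM in MCAO/R + WT and 926, 2197 and 1806 CPM in MCAO/R + Lrg1-/- mice. The sham and MCAO/R Lrg1-/- mice overlapped for both genes, and the MCAO/R + WT mouse lay within the sham + WT range for S100a4 and above it for S100a6.

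S100a4 was also called where it is close to absent in sham + WT mice. In oligodendrocytes it was at 0.325, 0.651 and 1.12 CPM in sham + WT, 1.94, 1.15 and 3.03 CPM in sham + Lrg1-/-, 4.31 and 1.44 CPM in MCAO/R + WT and 3.24, 31.3 and 20.3 CPM in MCAO/R + Lrg1-/- mice. The sham + WT values rest on 5, 12 and 14 UMIs and the sham + Lrg1-/- values on 7, 2 and 3. The high values of MCAO/R + Lrg1-/- mice were those of mice 2 and 5, with mouse 1 within the range of the MCAO/R + WT mice. The difference for stroke in Lrg1-/- mice was 3.33 ± 0.81, lost at 3.37 and 3.11 without sham + Lrg1-/- mice 1 and 2, and that for genotype after MCAO/R 2.80 ± 0.66, which was lost at 2.16 without MCAO/R + WT mouse 2 and was 3.74 without mouse 1, where it was still called. In choroid plexus epithelial cells it was at 0, 0.339 and 1.60 CPM in sham + WT, 12.3, 8.58 and 20.5 CPM in sham + Lrg1-/-, 0 UMIs in both MCAO/R + WT mice and 20.7, 36.0 and 24.4 CPM in MCAO/R + Lrg1-/- mice. It was higher in sham + Lrg1-/- than in sham + WT mice by 4.44 ± 0.66 on the log2 scale, a call held with every mouse left out but not in cells thinned to 1000 UMIs (3.14), and the value was 5.91 without sham + WT mouse 3. After MCAO/R it was at least 16.9-fold higher in Lrg1-/- mice, from 777 UMIs against 0, with a floor of 3 counts set for the MCAO/R + WT group. That call was lost under a 10% mitochondrial limit and in cells thinned to 1000 UMIs.

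Lgals1 codes for galectin-1, a sugar-binding protein of vessel walls and leukocytes. In microglia it was at 3.43, 3.68 and 3.79 CPM in sham + WT, 34.2, 18.9 and 20.5 CPM in sham + Lrg1-/-, 48.1 and 6.82 CPM in MCAO/R + WT and 240.3, 216 and 139 CPM in MCAO/R + Lrg1-/- mice. The sham + WT mice lay lowest and the MCAO/R + Lrg1-/- mice highest, and the MCAO/R + WT mice lay far apart. The log2 fold change for stroke was 2.99 ± 0.52 in Lrg1-/- mice, and that for genotype 2.77 ± 0.54 after sham and 2.85 ± 0.59 after MCAO/R, each called with every mouse left out. For stroke in WT mice it was 2.92 ± 0.55, but 0.91 and not called without MCAO/R + WT mouse 1 and 3.72 without MCAO/R + WT mouse 2. For genotype after MCAO/R, the value was 4.85 without MCAO/R + WT mouse 1 and 2.04 without mouse 2.

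The genotype difference of Lgals1 was found in cells of unlike origin. In endothelial cells it was at 4.15, 4.53 and 4.70 CPM in sham + WT, 30.3, 17.6 and 18.8 CPM in sham + Lrg1-/-, 8.83 and 3.84 CPM in MCAO/R + WT and 57.2, 65.6 and 55.8 CPM in MCAO/R + Lrg1-/- mice. In oligodendrocytes it was at 2.73, 2.98 and 2.73 CPM in sham + WT, 28.0, 16.1 and 12.1 CPM in sham + Lrg1-/-, 4.92 and 2.42 CPM in MCAO/R + WT and 58.7, 65.4 and 59.1 CPM in MCAO/R + Lrg1-/- mice. In both types all 6 Lrg1-/- mice lay above all 5 WT mice. The levels of the Lrg1-/- mice were close to each other in these types, and below those in choroid plexus epithelial cells given above. The part of transcripts from other cells in these differences was not tested. The log2 fold change for genotype was 2.32 ± 0.28 after sham and 3.22 ± 0.32 after MCAO/R in endothelial cells, and 2.86 ± 0.30 and 4.12 ± 0.30 in oligodendrocytes. It was 3.95 in endothelial cells after MCAO/R without MCAO/R + WT mouse 1, and 3.61 in oligodendrocytes after sham in cells thinned to 1000 UMIs, both called. In ependymal cells it was at 5.04, 9.24 and 9.39 CPM in sham + WT, 147, 77.9 and 146 CPM in sham + Lrg1-/-, 28.3 and 4.95 CPM in MCAO/R + WT and 196, 434 and 235 CPM in MCAO/R + Lrg1-/- mice, again with all Lrg1-/- above all WT mice. The difference was 4.01 ± 0.53 after sham, held with every mouse left out, and 4.10 ± 0.57 after MCAO/R, which was 3.35 and not called without MCAO/R + WT mouse 2, and 5.85 without mouse 1. In ependymal cells the choroid plexus sum was 536 to 4552 and 390.2 to 464 CPM in the sham and MCAO/R WT mice and 29719 to 37386 and 6847 to 28876 CPM in the Lrg1-/- mice, and its part in this difference was not tested. In oligodendrocyte precursor cells, Lgals1 had 0 UMIs in the 1 MCAO/R + WT mouse with enough cells and 103 and 249 CPM in 2 MCAO/R + Lrg1-/- mice, at least 28.0-fold higher, from 48 UMIs against 0 with a floor of 3 counts set for the WT mouse.

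Lgals1 also differed between the groups in the leukocytes where it is high. In border macrophages it was at 199, 186 and 219.8 CPM in sham + WT, 237, 239 and 346 CPM in sham + Lrg1-/-, 421 and 225 CPM in MCAO/R + WT and 1073, 1538 and 1514 CPM in MCAO/R + Lrg1-/- mice. The 3 MCAO/R + Lrg1-/- mice stood above all 8 others. The difference was 2.35 ± 0.24 for stroke in Lrg1-/- mice and 2.09 ± 0.27 for genotype after MCAO/R, and both calls held with every mouse left out. In monocytes it was at 236, 228 and 119 CPM in sham + WT, 179.9 and 159.5 CPM in sham + Lrg1-/-, 355 CPM in MCAO/R + WT and 655, 1089 and 1640.3 CPM in MCAO/R + Lrg1-/- mice, with 2.73 ± 0.41 for stroke in Lrg1-/- mice, also held. In T cells it was at 283, 165 and 296 CPM in sham + WT, 804, 884 and 1008 CPM in sham + Lrg1-/-, 348 CPM in MCAO/R + WT and 895, 836 and 652 CPM in MCAO/R + Lrg1-/- mice. The genotype difference after sham, 1.87 ± 0.22, held with every mouse left out.

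Vascular smooth muscle cells, where Lgals1 was highest in sham + WT mice, held the single interaction call, 1 of 120 pairs (0.833%) where 0.691% of all tests were called higher, so that nothing about the members is read from it. It was at 392, 329 and 323 CPM in sham + WT, 363, 398 and 475 CPM in sham + Lrg1-/-, 259 and 163 CPM in MCAO/R + WT and 538, 641 and 603 CPM in MCAO/R + Lrg1-/- mice. After stroke, the WT mice lay below and the Lrg1-/- mice above their sham group, without overlap. The log2 fold change was -0.72 ± 0.18 in WT and 0.54 ± 0.16 in Lrg1-/- mice, and the interaction 1.26 ± 0.24. The stroke calls were lost at -0.63 and -0.42 without sham + WT mouse 1 and MCAO/R + WT mouse 2 in WT mice, and at 0.45 to 0.56 without sham + Lrg1-/- mouse 1 or 2 or MCAO/R + Lrg1-/- mouse 2 or 5 in Lrg1-/- mice. The interaction was lost at 1.17, 1.26 and 0.97 without sham + WT mouse 1, sham + Lrg1-/- mouse 2 and MCAO/R + WT mouse 2, at 1.33 with a replicate block and at 0.96 in cells thinned to 1000 UMIs. The genotype difference after MCAO/R, 1.4996 ± 0.18, held with every mouse left out.

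**Figure D5:**
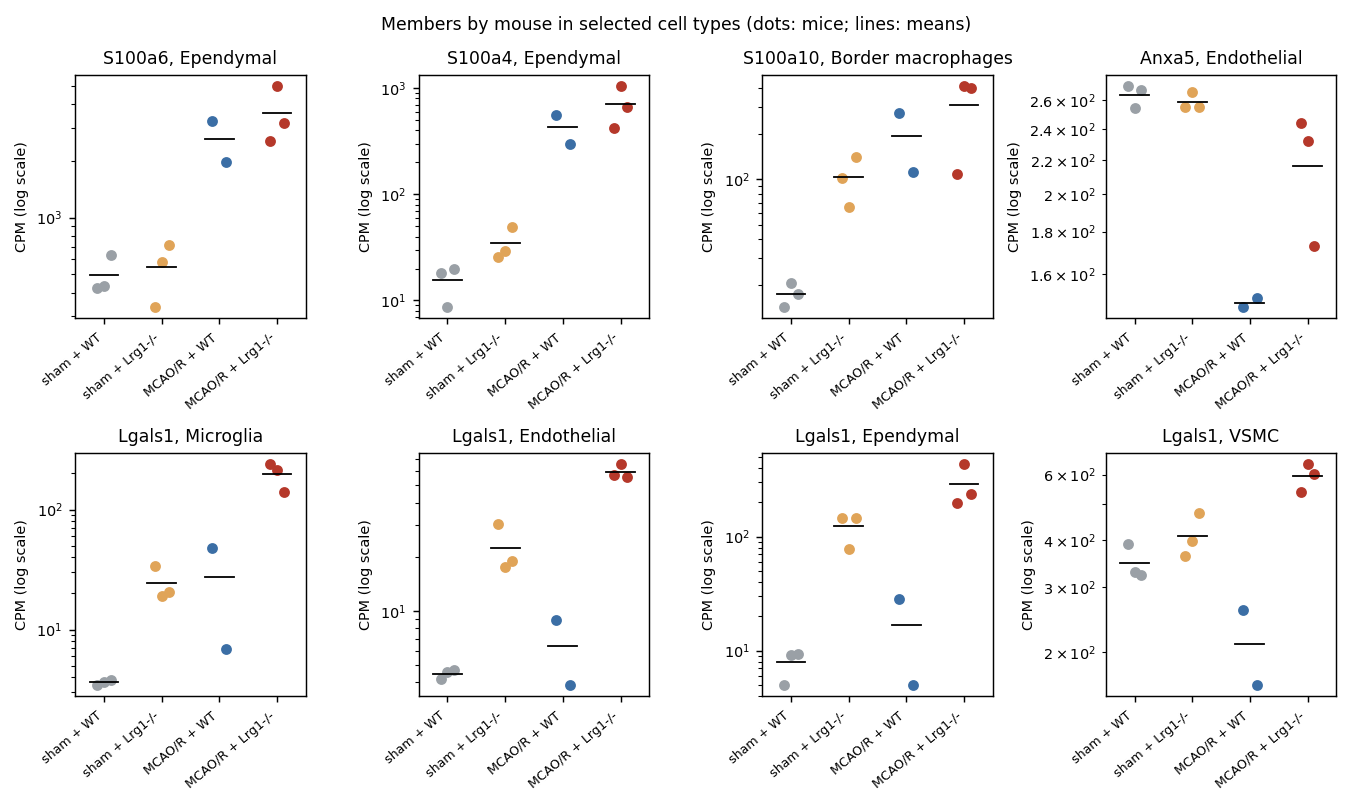
S100a6 and S100a4 in ependymal cells, S100a10 in border macrophages, Anxa5 in endothelial cells, and Lgals1 in microglia, endothelial, ependymal and vascular smooth muscle cells, as CPM on a log axis, with 1 dot per mouse and a line at each group's mean. For Lgals1 in endothelial cells the 6 Lrg1-/- mice lie between 17.6 and 65.6 CPM and the 5 WT mice between 3.84 and 8.83 CPM.

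Emp3, the small membrane protein of the PMP22 family, was called higher in as many cell types as Lgals1 for genotype after MCAO/R. In border macrophages it was at 118, 124 and 131 CPM in sham + WT, 156, 134 and 160.0 CPM in sham + Lrg1-/-, 214 and 131 CPM in MCAO/R + WT and 244, 345 and 341 CPM in MCAO/R + Lrg1-/- mice. The MCAO/R + Lrg1-/- mice again stood above all others. The difference for stroke in Lrg1-/- mice was 1.06 ± 0.21, held with every mouse left out, and that for genotype after MCAO/R 0.85 ± 0.22, lost at 0.50 and 0.77 without MCAO/R + WT mouse 2 and MCAO/R + Lrg1-/- mouse 2. In microglia it was at 22.7, 24.0 and 22.1 CPM in sham + WT, 38.6, 41.8 and 29.2 CPM in sham + Lrg1-/-, 92.8 and 27.0 CPM in MCAO/R + WT and 124, 183 and 141 CPM in MCAO/R + Lrg1-/- mice. MCAO/R + WT mouse 2 lay near the sham + WT mice and mouse 1 above all sham mice. In ependymal cells it was at 7.06, 6.93 and 11.2 CPM in sham + WT, 30.0, 14.6 and 71.6 CPM in sham + Lrg1-/-, 11.9 and 7.43 CPM in MCAO/R + WT and 83.5, 87.7 and 85.6 CPM in MCAO/R + Lrg1-/- mice, with all Lrg1-/- mice above all WT mice.

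Emp3 was highest in leukocytes in sham + WT mice. Monocytes had 472, 566 and 324 CPM in sham + WT, 406 and 470.0 CPM in sham + Lrg1-/-, 399.8 CPM in MCAO/R + WT and 457.8, 713 and 606 CPM in MCAO/R + Lrg1-/- mice. The sham + WT mice overlapped with every other group. T cells had 218, 143 and 119.9 CPM in sham + WT, 254, 275 and 392 CPM in sham + Lrg1-/-, 224 CPM in MCAO/R + WT and 295, 314 and 274 CPM in MCAO/R + Lrg1-/- mice. The genotype difference after sham, 0.92 ± 0.23, did not overlap but was lost at 0.70 to 0.98 without sham + WT mouse 2 or 3, sham + Lrg1-/- mouse 2 or 5, or MCAO/R + Lrg1-/- mouse 2. In oligodendrocyte precursor cells it had 0 UMIs in the MCAO/R + WT mouse and 46.1 and 134 CPM in 2 MCAO/R + Lrg1-/- mice, at least 13.996-fold higher, from 24 UMIs against 0 with the same floor.

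The MCAO/R + WT mice differed from each other in these genes. Mouse 1 lay above mouse 2 in 91 of 109 pairs of member and cell type (83.5%), with a median log2 ratio of 0.73, over 11 cell types. Over all genes, mouse 1 lay above mouse 2 in 49.6% of 143864 pairs, with a median of 0.00. For Lgals1 in microglia they were at 48.1 and 6.82 CPM and for S100a10 in oligodendrocytes at 38.1 and 4.98 CPM. Pairs share the same libraries and are not independent, so that this is a description of these mice.

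The pattern of the members was compared over the 154 sums of library and cell type. The 45 pairs of members had Spearman rho of log2(CPM + 1) from -0.02 to 0.898, with a median of 0.514, over sums that share libraries and depth. Among 14990 genes, those most like Anxa2 were S100a11 (rho 0.898), Txn1 (0.891) and Anxa1 (0.852), and those most like Anxa1 were S100a11 (0.896), Anxa2 (0.852) and Txn1 (0.809). S100a11 was in turn most like Anxa2 (0.898), Anxa1 (0.896) and Txn1 (0.878). S100a4 and S100a6 were nearest to each other (0.787), followed by Lgals3 for both (0.715 and 0.760). S100a10 was not nearest to its partner Anxa2 but to the ribosomal protein genes Rplp0 (0.767) and Rpsa (0.756). Emp3 was most like Pfn1 (0.837), Capzb (0.812) and Arhgdib (0.803), and Lgals1 most like Eif5a (0.748), Slc25a3 (0.740) and Emp3 (0.728). Anxa3 was most like Itpripl2 (0.798), Anxa7 (0.789) and Tfpi (0.781), and Anxa5 most like Capns1 (0.794), Dnajc3 (0.786) and Laptm4a (0.776).

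Genes of the same families and pathways that are no members were counted in the same way. Over 48 such genes, 64 of 466 pairs were called higher and 16 lower for stroke in WT mice, 61 and 16 of 497 for stroke in Lrg1-/- mice, 82 and 23 of 485 for genotype after MCAO/R and 62 and 13 of 456 for genotype after sham. Over all genes, the shares called higher and lower in that order of contrasts were 4.45% and 4.23%, 5.48% and 4.66%, 7.82% and 6.76%, and 5.27% and 4.89%. For the interaction, 5 of 435 were called higher and 8 lower, against 0.691% and 0.553% of all tests. The other annexins had 8 of 56 pairs called higher and 2 lower for stroke in WT mice, and 9 and 2 of 56 for genotype after MCAO/R. The other S100 genes had 1 of 77 higher and 3 lower for stroke in WT mice, 18 and 2 of 87 for stroke in Lrg1-/- mice, and 35 and 0 of 84 for genotype after MCAO/R. Of these, S100a8 and S100a9, which neutrophils make in bulk, were each called higher in 9 of 14 cell types for genotype after MCAO/R. In microglia S100a8 was at 5.50 to 5.69 CPM in MCAO/R + WT and 13.6 to 113 CPM in MCAO/R + Lrg1-/- mice.

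The galectins and the plasminogen system gave other counts, which stand beside the same shares over all genes. The other galectins had 10 of 49 pairs called higher and 2 lower for stroke in WT mice and 8 and 5 of 50 for genotype after MCAO/R. Lgals3, the galectin of phagocytes, was called higher in 7 of 13 cell types after stroke in WT mice and in 9 of 15 in Lrg1-/- mice, with a log2 fold change in microglia of 5.42 ± 0.68 and 5.25 ± 0.68. The family of Emp3 and PMP22 had 7 of 47 higher and 3 lower for stroke in WT mice, led by Emp1, higher in 6 of 13 cell types. Partners of the annexins and membrane repair genes had 26 of 182 higher and 3 lower for stroke in WT mice and 21 and 10 of 188 for genotype after MCAO/R, and Cavin1, a coat protein of caveolae, was higher in 10 of 12 cell types for genotype after sham. The plasminogen system and the annexin A1 receptors had 12 of 55 higher and 3 lower for stroke in WT mice but 2 and 4 of 60 for genotype after MCAO/R. Plaur, the urokinase receptor, was called higher in 8 of 13 cell types after stroke in WT mice, with 2.72 ± 0.26 in microglia, and in 5 of 14 in Lrg1-/- mice, with 1.24 ± 0.24 in microglia.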

How the data were processed

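The authors deposited raw counts, as UMIs of each gene in each barcode, made from 10x 3′ reads. The matrix headers name Cell Ranger 7.0.1, and the submitters' processing notes name mm10. Barcodes with over 500 genes, over 1000 UMIs and under 25% mitochondrial UMIs were kept, as in the study's methods. Doublets were scored by simulation, and where the automatic threshold marked under 0.5% of cells, the highest 6% were removed. Cells were clustered (2000 variable genes without the members and related genes, 15 principal components, 3 neighbours in each mouse, Leiden resolution 0.3, igraph 0.11.9, leidenalg 0.10.2, Python 3.11.15) and named from at least 3 markers at 2-fold and in 10% of cells. A margin of 1 on the log2 scale over the next type was required, and the naming rule was set after clusters were seen.

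Counts were summed per library and cell type, from at least 20 cells, and fitted with the quasi-likelihood test of edgeR 4.0.16 (R 4.3.3) with TMM scaling and the package's filter on low counts. All groups of a cell type entered 1 fit. The fit was first tried on counts simulated from endothelial cells, which does not test cell types with few cells or with 1 library in a group. CPM are on TMM-scaled totals, which lay between 131909 and 54767656 UMIs before scaling. Fold changes are log2 with their standard error. Alternatives were RLE scaling, DESeq2 1.42.0, no filter, a replicate block, doublets kept, a 10% mitochondrial limit, cells thinned to 1000 UMIs, at least 50 cells, sums without haemoglobin, mitochondrial and Ttr UMIs, and each mouse left out.

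The members and the lists of related genes were chosen with earlier results of these data known. All members are described, with every mouse in 3 cell types and in the 3 largest called folds without overlap per contrast and direction. The 3 cell types are those of highest mean level among the 12 with sums in all 4 groups, which leaves out neutrophils. In MCAO/R + Lrg1-/- mouse 2, neutrophils held 12798 UMIs of S100a6, 8230 of S100a11 and 1806 of Anxa1 among 1646567. Monocytes of that mouse held 19895, 13730 and 1684 among 10086668, a smaller share for each gene. Anxa2 is given in 4 cell types because the study names it there. The study reports it as higher in Lrg1-/- than in WT cells of the blood-brain barrier after MCAO/R. Its protein staining was described for endothelial cells. Further cell types shown with every mouse were chosen after their values were seen, namely Anxa5, S100a6 and Emp3 in microglia, S100a6 and S100a10 in vascular smooth muscle cells, Lgals1 in endothelial and choroid plexus epithelial cells and oligodendrocytes, and Emp3 in ependymal cells. Named related genes are those called in the most cell types, up to 5 per contrast. Motifs were searched in RefSeq promoter windows of GRCm38.p6. Strand of counting is not given in the sources used here, so that overlapping genes may share counts.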

Additional observations from a re-analysis of the deposited data

Results flagged for a closer look

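The interaction of stroke and genotype for Lgals1 in vascular smooth muscle cells, 1.26 on the log2 scale, passed the limits in edgeR's quasi-likelihood test. In WT mice all MCAO/R mice lay below the sham mice, and in Lrg1-/- mice all MCAO/R mice lay above them. The call was lost without sham + WT mouse 1 (1.17), sham + Lrg1-/- mouse 2 (1.26) or MCAO/R + WT mouse 2 (0.97), and also with a replicate block (1.33) and in cells thinned to 1000 UMIs (0.96). It was 1 of 120 pairs of member and cell type (0.833%), where 0.691% of all tests were called higher, and nothing about the members is read from it.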

How the results depend on the processing

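Counts of called pairs of member and cell type moved with the filter on low counts, thinning, the minimum number of cells, the replicate block and single mice. With no filter, 44 pairs were called higher and 5 lower for stroke in WT mice, 79 higher for stroke in Lrg1-/- mice, 4 lower for genotype after sham, and 12 higher and 5 lower for the interaction. Cells thinned to 1000 UMIs gave 12 higher and 1 lower for stroke in WT mice, 0 lower for stroke in Lrg1-/- mice, 19 higher and 1 lower for genotype after sham, and 2 higher for the interaction, with 106 to 117 tests instead of 120 to 147. With at least 50 cells per library the counts were 0 lower for stroke in Lrg1-/- mice, 23 higher for genotype after sham and 2 higher for the interaction, with fewer pairs tested. DESeq2 called 6 lower for stroke in WT mice and 5 higher for the interaction, and with doublets kept 2 were higher for the interaction. The cause of these shifts was not tested, apart from the smaller number of tests named. Shares over all genes are not given for these settings, so the counts are set only beside those of the main fit.

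With single mice left out, higher calls ranged from 8 to 34 for stroke in WT mice, 27 to 52 for stroke in Lrg1-/- mice, 30 to 66 for genotype after MCAO/R, 27 to 43 for genotype after sham and 0 to 12 for the interaction. Lower calls ranged from 2 to 4, 0 to 1, 0 to 2, 0 to 2 and 0 to 1 in the same order. Some of these fits tested fewer pairs than the main fit. Of 62 called folds followed, those of the rule for named pairs and of Anxa2, 33 were called in every such fit and 29 were lost in at least 1. Lgals1 and Emp3 in oligodendrocyte precursor cells are among the 33 but could not be lost when a mouse was left out. That type had 3 libraries, and no fit was made with fewer. Another 4 were lost only under other alternatives, chiefly thinning, which left 29 called throughout. Of 10 further called folds given for S100a6, S100a10 and Lgals1, 1 was lost, for stroke in WT mice of S100a10 in vascular smooth muscle cells. None of the 62 called folds turned its direction under any alternative in which it was fitted. The other folds among the 76 followed were checked for this only where an alternative called them.

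With the replicate number as a block, 14 pairs were called higher for stroke in WT mice, 1 lower for genotype after MCAO/R, 24 higher and 0 lower for genotype after sham and 0 higher for the interaction. The numbers do not pair the mice: deviations of same-numbered mice correlated at -0.37 to 0.21 (median -0.01), over 0.1 in 8 of 147 values, each for 1 pair of libraries in 1 cell type. Cell types of fewer cells had sums down to 131909 UMIs, where a gene at a few CPM gives almost no counts.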
